A study of Mus musculus with 8 samples.

Results

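The comparison described here sets haematopoietic stem cells that carry 1 working copy of Adar against cells that carry both copies. It uses the 5 arrays whose sample titles end in HT (3 heterozygous arrays) or WT (2 wild-type arrays), out of 8 in the series. The remaining 3 arrays hold Adar null cells and serve as a scale. All 3 genotypes (wild type, ADAR1 +/- and ADAR1 -/-) were C57/B6 mice. Cells came from the fetal liver and were sorted as Lin-Sca+Kit+, that is, without markers of mature blood lineages and with Sca-1 and the Kit receptor. The design text states that each array holds cells from 1 mouse, so the spread between arrays includes the spread between mice. The sources used here give neither the gestational age nor the deleted part of Adar nor the way the allele was made.

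Adar encodes ADAR1, an enzyme that edits double-stranded RNA by turning adenosine into inosine. Edited RNA pairs less perfectly, and cells without the enzyme are known to sense their own double-stranded RNA through MDA5 (encoded by Ifih1), which signals through MAVS to type I interferon and the genes that interferon induces. Mice with 1 functional allele are generally viable, whereas embryos that lack both alleles die with failure of fetal liver blood formation, and the question put to these arrays is whether transcript levels in stem cells already differ when 1 copy is lost.

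The wild-type arrays differed more from each other than the heterozygous arrays did. Across all probe sets, which are not independent replicates, the log2 intensities correlated at 0.915 between the 2 wild-type arrays and at 0.968 to 0.973 between heterozygous arrays. Wild-type array 1 correlated with the heterozygous arrays at 0.949 to 0.954 and wild-type array 2 at 0.925 to 0.929. More than 4-fold apart were 1897 probe sets (4.21%) between the wild-type arrays, against 257 to 402 (0.571% to 0.893%) between heterozygous arrays. Wild-type array 2 therefore stands apart. A described difference of at least 1 log2 unit that moved by over 1.5 times without wild-type array 1 or 2 is also given without that array. Background, set on each array as the highest reading among 27 Bacillus control probe sets, lay at 7.09 and 8.15 linear units on the wild-type arrays and at 6.2 to 6.98 on the heterozygous arrays. Between 45.6% and 61.2% of probe sets were above it. Xist, the transcript of the inactive X chromosome of females, read 742 and 660 units in wild type and 21.6, 637 and 26.8 in heterozygous cells. The Y-linked gene Eif2s3y read 10.1 and 8.68 against 99.9, 5.36 and 127, so heterozygous arrays 1 and 3 showed a male pattern and the other 3 arrays a female one. Heterozygous array 2 is the only one of its group with the pattern of the wild-type arrays. The Gapdh ratio of the 3' to the 5' probe set, a sign of RNA length, was 4.39 and 4.32 on the wild-type arrays and 5.78, 4.78 and 9 on the heterozygous arrays, higher on all of the latter. The same ratio for Actb was 0.65 and 0.645 against 0.703, 0.648 and 0.677, with overlap. The part of RNA length in the differences was not tested.

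Adar itself was examined first. Its brightest probe set read 7.66 and 17.6 linear units on the wild-type arrays and 13.1, 16.1 and 9.89 on the heterozygous arrays. All 3 heterozygous values lay between the wild-type ones. The difference, heterozygous minus wild type, was 0.14 ± 0.55 log2 units (SE; 95% confidence interval -1.17 to 1.45; limma, adjusted p = 0.985). It was -0.46 without wild-type array 1 and 0.74 without array 2, so its sign rested on which array was kept. On the null arrays the same probe set read 59.7, 144 and 176 units. A second probe set, 1425405_a_at, read 13.5 and 12.7 units in wild type and 6.41, 6.74 and 6.02 in heterozygous cells. These groups did not overlap, and the difference was -1.04 ± 0.36 log2 units (95% confidence interval -1.90 to -0.18), which did not pass the threshold (unadjusted p = 0.0246, adjusted p = 0.891). Only 1 of its 3 heterozygous readings was above background. The third probe set differed by 0.20 ± 0.26 log2 units, with both wild-type arrays at background. The probe sets therefore differed in sign, and since the deleted sequence is not given here, it is not known which of them a null allele would lower. The intervals of the first and second probe sets both include the fall of 1 log2 unit that the loss of 1 of 2 equally active copies would give.

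Interferon-induced genes are the transcripts that cells lacking ADAR1 are best known to raise. Many carry an interferon-stimulated response element in their promoters, the letters TTTCNNTTTC (GAAANNGAAA on the other strand), which interferon-activated transcription factors bind. The promoters of 3 of the genes described next are shown with each match in capitals. These are the first 3 interferon-induced genes, ordered by null minus wild-type difference, with a listed promoter that held a match. A match in each was therefore set by the choice. Each run covers 250 bases before to 50 bases after the transcription start, read in the direction of the gene, from RefSeq on build GRCm38.p6. Rsad2 lies on the minus strand (chr12:26456403-26456702), and Ifit1 (chr19:34640639-34640938) and Ifit3 (chr19:34583279-34583578) on the plus strand.
Rsad2: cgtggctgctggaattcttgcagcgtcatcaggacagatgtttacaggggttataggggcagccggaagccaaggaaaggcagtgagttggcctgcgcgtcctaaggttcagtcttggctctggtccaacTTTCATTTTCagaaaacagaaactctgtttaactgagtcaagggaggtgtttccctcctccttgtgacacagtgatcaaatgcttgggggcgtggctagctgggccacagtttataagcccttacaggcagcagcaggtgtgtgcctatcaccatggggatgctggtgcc
Ifit1: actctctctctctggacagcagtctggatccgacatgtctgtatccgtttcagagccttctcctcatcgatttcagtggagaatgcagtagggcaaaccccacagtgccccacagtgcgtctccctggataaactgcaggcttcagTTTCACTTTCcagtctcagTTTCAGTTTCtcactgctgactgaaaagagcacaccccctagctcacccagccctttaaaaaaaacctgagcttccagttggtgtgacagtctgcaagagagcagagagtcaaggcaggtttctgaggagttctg
Ifit3: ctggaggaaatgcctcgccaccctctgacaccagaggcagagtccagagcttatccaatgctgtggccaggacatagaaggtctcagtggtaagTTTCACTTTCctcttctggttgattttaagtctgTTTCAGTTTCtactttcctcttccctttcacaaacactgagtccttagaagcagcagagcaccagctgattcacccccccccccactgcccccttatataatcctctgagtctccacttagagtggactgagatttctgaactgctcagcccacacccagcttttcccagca
Rsad2 held 1 match, and Ifit1 and Ifit3 held 2 each. Of the 45 measured genes of the type I interferon list, 34 had a promoter entry, and 14 of these (41.2%) held the letters on either strand, against 1079 of 27025 genes (3.99%) over all promoters of this length. A match describes the letters only and shows no binding.

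In cells with 1 copy of Adar, the interferon-induced genes differed from wild type by at most 1.52 log2 units, and 0 of 45 passed the threshold. Over all genes, 0 of 18193 passed (0%). Rsad2, which encodes the antiviral enzyme viperin, read 10.3 and 12.3 linear units in the wild type and 20.2, 14.8 and 7.49 in heterozygous cells. The groups overlapped, and the difference was 0.21 ± 0.58 log2 units (SE; 95% confidence interval -1.18 to 1.6). The 3 null arrays read 4330, 6050 and 1860 units. Ifit1, which binds RNA lacking the host cap methylation, read 7.11 and 7.40 against 6.78, 7.60 and 7.12 units. These 5 values spanned less than 1 unit, all close to background, and the difference was -0.02 ± 0.62 log2 units. Its null arrays read 707, 3820 and 1550 units. Ifit3, its partner, read 8.81 and 8.40 against 14, 9.44 and 9.97 units. Every heterozygous reading was above both wild-type ones, by a difference of 0.35 ± 0.70 log2 units (adjusted p = 0.964).

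The other genes of the 10 with the largest null minus wild-type differences also read low in both groups. Isg20, an exonuclease, differed by 0.50 ± 0.47 log2 units, with overlapping groups. Bst2, the tethering protein that holds budding virus at the membrane, read 10.7 and 17.3 units in wild type and 20, 39.2 and 21.3 in heterozygous cells, a difference of 0.91 ± 0.50 (adjusted p = 0.893). Usp18, which removes ISG15 from proteins and damps interferon receptor signalling, read 6.61 and 8.18 against 5.92, 5.16 and 4.99 units. All 3 heterozygous values of Usp18 and that of wild-type array 1 were at background, so its difference of -0.46 log2 units lay at the floor of the assay. Oas1a, which makes the second messenger that activates RNase L, read 33.1 and 14.9 against 16.3, 41.7 and 15.6 units, with overlapping groups. Mx2, an antiviral GTPase, and Cxcl10, a chemokine, were at background on all 5 arrays, at 4.77 to 6.50 units. In null cells, by contrast, Mx2 read 225 to 482 units and Cxcl10 88.8 to 773 units.

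**Figure D1:**
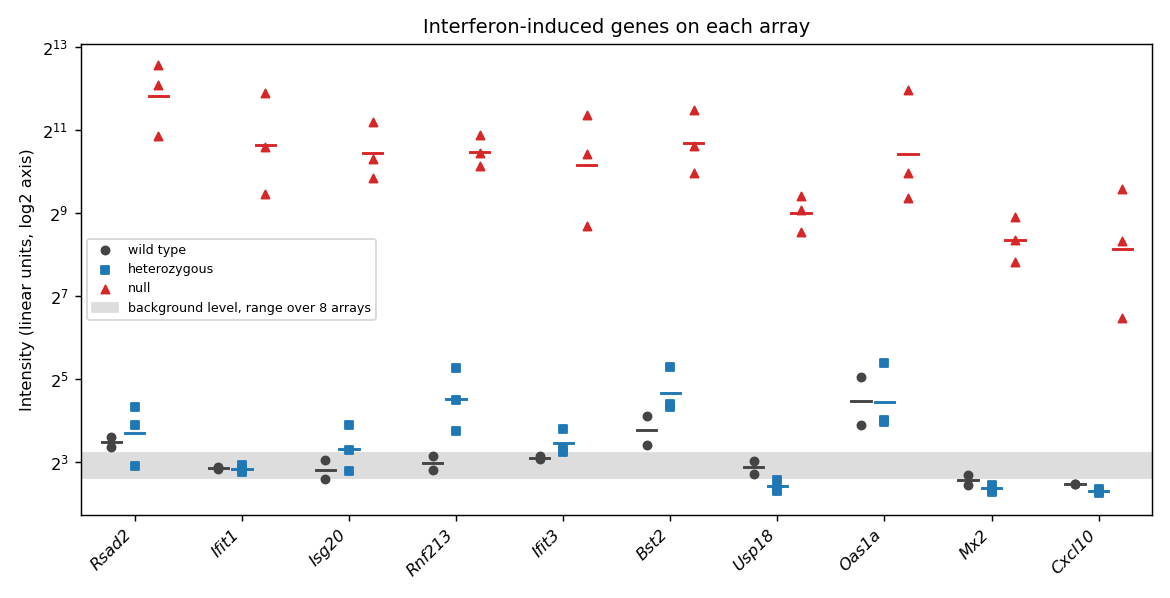
Linear intensity (log2 axis) of the 10 interferon-induced genes with the largest null minus wild-type differences. Points are single arrays, bars are the mean of the log2 values in each group, and the grey band is the range of the background level over the 8 arrays. The wild-type and heterozygous points lie between 4.77 and 41.7 units and the null points between 88.8 and 6050 units.

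Rnf213, a large ubiquitin ligase, had the largest difference of the list. It read 7.04 and 8.95 units in wild type and 22.8, 38.6 and 13.5 in heterozygous cells. The groups did not overlap and the heterozygous mean was 2.87-fold higher (1.52 ± 0.44 log2 units, unadjusted p = 0.0116, adjusted p = 0.891). Wild-type array 1 was at background for Rnf213, so this fold is not exact. On the null arrays Rnf213 read 1400, 1880 and 1120 units. Herc6, the mouse ligase that attaches ISG15, read 10.2 and 7.50 against 18.2, 18.5 and 21.7 units (1.15 ± 0.33, unadjusted p = 0.0105), with wild-type array 2 at background. Ifitm3, a membrane protein that blocks viral entry, read 272 and 230 against 336, 385 and 391 units (0.56 ± 0.16, unadjusted p = 0.0114). Stat2, a component of the interferon-activated transcription factor, read 7.05 and 5.79 units, at background, in wild type and 8.03, 8.95 and 9.85 in heterozygous cells, at least 1.17-fold higher. Each of these 4 genes was higher on all 3 heterozygous arrays than on either wild-type array. In the other direction, Tor3a read 18.8 and 19.7 units in wild type and 8.64, 8.34 and 11.9 in heterozygous cells (-1.02 ± 0.27, unadjusted p = 0.00715, adjusted p = 0.832). The sensor gene Ifih1 read 23 and 19.8 against 8.72, 6.18 and 17.5 units (-1.12 ± 0.53, unadjusted p = 0.0753). Ifih1 and Tor3a were thus lower on all heterozygous arrays, although both passed the threshold as higher in null cells than in wild type (adjusted p = 0.0254 and 0.00364).

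Over the whole interferon list, 23 genes were higher and 22 lower in heterozygous cells, with a median difference of 0.03 log2 units and a range of -1.12 to 1.52. With genes at background set to their bound the median was -0.05. The median over all genes was -0.05, and -0.09 with bounds. At an unadjusted p under 0.05, the 4 genes named above were higher and Tor3a was lower, beside 3% of all genes higher and 2.9% lower. With the 5 arrays fitted alone, where the null arrays do not enter the spread, 5 members were higher (5.84% of all genes were) and 4 lower (4.61%). The added ones were Dtx3l at 0.39 log2 units, Mx1 at -0.51, Usp18 at -0.46 and Xaf1 at -0.79. Without wild-type array 1 the list ranged from -1.06 to 1.37 and without array 2 from -1.23 to 1.7, with 0 past the threshold in both. Groups did not overlap for 12 genes that were higher and 8 that were lower, beside 12.4% and 17.5% of all genes. The heterozygous difference was under 1 log2 unit in size for 40 of the 45 genes. Its confidence interval lay within 2 log2 units of 0 for 34 genes and within 1 unit for 8, beside 14516 and 9263 of all 18193 genes. With the 5 arrays fitted alone the list's counts were 42 and 28. How many intervals include a 2-fold difference therefore depends on whether the null arrays enter the spread. Null minus wild type, which shares the wild-type arrays, had a median of 4.79 log2 units with 32 genes past the threshold as higher (0.39% of all genes were), and null minus heterozygous 4.72 with 37 (0.456%). For 38 genes the upper limit of the heterozygous interval was below the lower limit of the null one, beside 112 of all 18193 genes. All 3 null arrays read above all 5 other arrays for 42 of the 45 genes, a count not made over all genes. Of the 45, 17 were above background on all 5 wild-type and heterozygous arrays (47.2% of all genes were). At background on all of them were 6, beside 4040 of all 18193 genes. The baseline of the list in fetal stem cells ran from the floor of the assay up to Trim25, at 1190 to 2130 units.

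**Figure D2:**
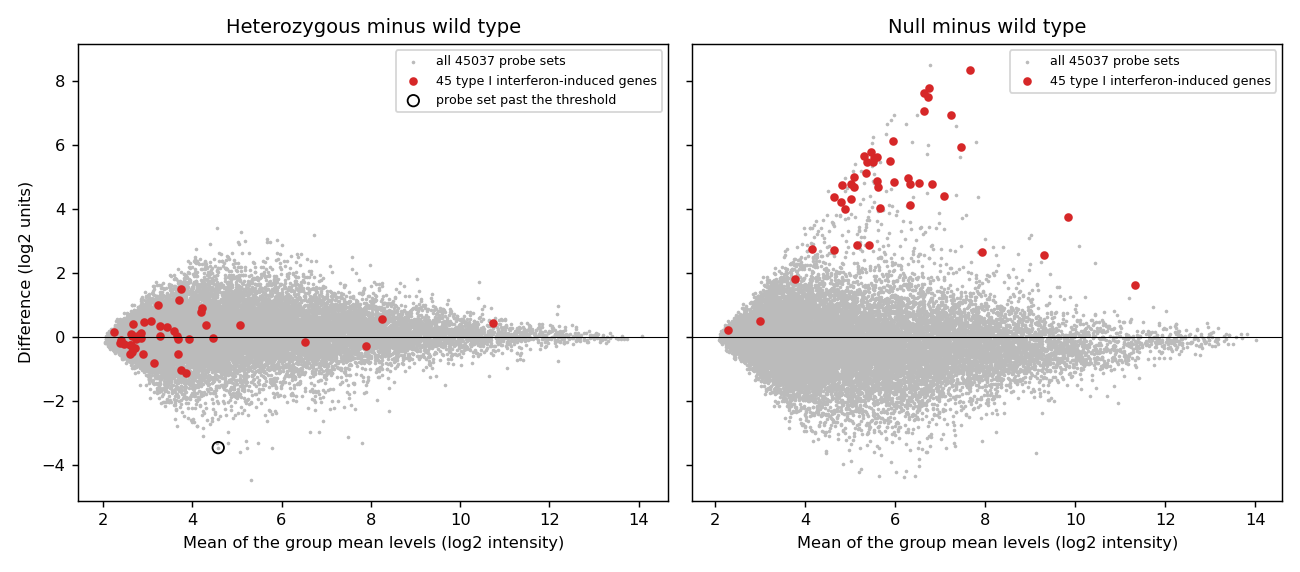
Difference from wild type (log2 units) against the mean of the group means (log2 intensity), for heterozygous cells (left) and null cells (right), which share the wild-type arrays. Grey points are the 45037 probe sets, red points the 45 interferon-induced genes at their brightest probe set, and the black circle the probe set past the threshold. The red points spread around 0 on the left, from -1.12 to 1.52, and have a median of 4.79 on the right.

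No gene of the machinery upstream of interferon passed the threshold either. Of 16 measured double-stranded RNA sensors and signalling genes, some of which also stand in the interferon list, 1 was higher and 1 lower with unadjusted p below 0.05 and the median difference was -0.05 log2 units. Eif2ak2, which encodes the kinase PKR that halts translation on double-stranded RNA, read 120 and 77.9 units in wild type and 110, 78.0 and 79.2 in heterozygous cells (-0.14 ± 0.35, 95% confidence interval -0.97 to 0.70). Its groups overlapped. Irf3, the transcription factor activated by MAVS, read 86.1 and 179 against 107, 127 and 91.4 units, also with overlap. Ticam1, the adaptor of Toll-like receptor 3, read 9.20 and 18.7 against 6.60, 5.50 and 6.29 units (-1.10 ± 0.33, unadjusted p = 0.0137), and without wild-type array 1 or 2 this difference was -1.61 or -0.59. Tbk1 and Cgas differed by 1.07 and 1.04 log2 units, and of the 16 genes 6 were higher and 10 lower. Without wild-type array 1 Tbk1 and Cgas differed by 1.85 and 1.92, and without array 2 by 0.28 and 0.17. Among 15 interferon ligands, receptors and receptor kinases, 0 were at an unadjusted p under 0.05. Ifnb1, the interferon beta gene, was at background on all 5 arrays, at 4.91 to 6.17 units. The receptor gene Ifnar1 read 24.1 and 38.5 against 33.5, 47.1 and 16.5 units. Of 10 interferon-inducible GTPases, which act on membranes around pathogens, 5 were at background on all 5 arrays and the median was -0.08. MHC class I antigen presentation genes had a median of 0.25 over 13 measured, with 9 higher and 4 lower. The largest differences were Tapbp at 1.14 and Psmb10 at 1.13 (0.61 without wild-type array 2). B2m, the shared light chain, read 540 and 299 against 734, 563 and 765 units (0.76 ± 0.28, unadjusted p = 0.0315, adjusted p = 0.891). Its groups did not overlap, and without wild-type array 1 or 2 the difference was 1.19 or 0.33. The other editing enzymes and their relatives also gave 0 calls among 10 measured. Apobec3, a cytidine deaminase that restricts retroviruses, read 123 and 238 against 253, 223 and 150 units.

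Over the whole transcriptome 1 of 45037 probe sets passed the threshold (0.00222%). That probe set, 1446423_at, has no gene in the annotation used. It read 92.5 and 67.7 units in wild type and 8.11, 7.59 and 6.23 in heterozygous cells. The heterozygous readings were close to background and the groups were far apart, with a heterozygous mean 10.9-fold lower (-3.44 ± 0.19 log2 units, 95% confidence interval -3.90 to -2.98, limma, adjusted p = 0.0278). The 3 null arrays read 9.22, 8.22 and 8.93 units, so both groups with a deleted allele were low. The call was kept in 7 of 17 alternative settings (adjusted p from 0.0125 to 0.329). The number of calls rested on single arrays. Without wild-type array 1 it was 164 probe sets and without wild-type array 2 it was 38, of which 1 was shared, and there the lone wild-type array is assumed to vary like the other groups. Without any 1 of heterozygous arrays 1, 2 and 3 or null arrays 1, 2 and 3 it was 0, and with the male or female pattern of each array as a covariate it was 0 too (smallest adjusted p = 0.329).

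At the level of genes, each read by its brightest probe set, 0 of 18193 passed the threshold. At an unadjusted p under 0.05 there were 1073 genes (5.9%), 546 higher and 527 lower in heterozygous cells. The smallest adjusted p was 0.130, for Wasf1, which encodes an activator of actin branching. Wasf1 read 106 and 157 units in wild type and 28.3, 23.6 and 26.2 in heterozygous cells, 4.98-fold lower (-2.32 ± 0.21 log2 units). The groups did not overlap, and the null arrays, at 36.4, 31.3 and 38.3 units, were also below wild type. The test was checked on simulated arrays of this design for heterozygous minus wild type. Over 45037 probe sets, with all shifts present together, it called 10% of 50 that were shifted by 1 log2 unit. It called 70% of 50 shifted by 2, 84% of 50 shifted by 4 and 96% of 50 shifted by 6. Many true shifts make the adjusted threshold easier to pass than in the real data, where 1 probe set passed. The shares therefore do not give the power reached in the real data.

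The genes with the largest differences were taken by a rule, which chose the 10 highest and 10 lowest of 532 and 355 eligible genes, those with an unadjusted p under 0.05, groups that do not overlap and the higher group above background. Their adjusted p ran from 0.434 to 0.891 for the higher genes and from 0.187 to 0.891 for the lower ones, so none of the 20 passed. Because the rule used these differences, they are a description.

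Among the higher ones, Zranb1, a deubiquitinase, read 20.5 and 5.87 units in wild type and 69.0, 140 and 125 in heterozygous cells (3.28 ± 0.92 log2 units). Smn1, needed to assemble splicing ribonucleoproteins, read 18 and 7.58 against 99.7, 73.3 and 103 units (2.96 ± 0.39, adjusted p = 0.434). Plrg1, a spliceosome protein, read 24.4 and 24.0 against 89.0, 209 and 177 units (2.62 ± 0.48). Smn1 was also high on the null arrays, at 188, 126 and 139 units, and Plrg1 at 206, 80.3 and 125. Cisd1, an iron-sulphur protein of the mitochondrial outer membrane, differed by 3.20 ± 1.13, but its wild-type arrays read 125 and 9.80 units. Without wild-type array 2 the Cisd1 difference was 1.36 and without array 1 it was 5.03. Sfxn2, a mitochondrial carrier, showed the same split, with 75.7 and 5.86 units in wild type and a difference of 1.18 without wild-type array 2 and 4.87 without array 1 in place of 3.03. Chchd6, of the cristae-organizing complex, Slc6a6, the taurine transporter, Aph1a, a gamma-secretase subunit, Hsd17b11, a steroid dehydrogenase, and 0610012G03Rik differed by 2.60 to 3.01 log2 units. Aph1a read 83.7, 140 and 54.9 units in heterozygous cells and 7.86, 6.24 and 7.55 in null cells, below its 21.1 and 9.24 in wild type.

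Among the lower ones, Plec, which encodes the cytoskeletal linker plectin, read 123 and 125 units in wild type and 17.1, 7.11 and 11.8 in heterozygous cells, 11-fold lower (-3.46 ± 0.36 log2 units, adjusted p = 0.187). Its null arrays read 10.1, 8.56 and 7.19 units. Cilk1, a kinase of the cilium, read 55.0 and 53.3 against 8.08, 8.24 and 10.4 units (-2.61 ± 0.26, adjusted p = 0.187). Rccd1, a chromatin-associated protein, read 642 and 429 against 108, 33.4 and 63.0 units (-3.11 ± 0.49), with null arrays at 62.4, 38.2 and 51.3. For Plec, Cilk1 and Rccd1 both wild-type arrays were far above the 6 others. Tert, the catalytic subunit of telomerase, read 13.3 and 83.4 units in wild type and 5.49, 4.12 and 5.04, all at background, in heterozygous cells, at least 5.04-fold lower. Wild-type array 2 carried most of that difference, which was -2.78 with both arrays and -1.46 without array 2. The same array was the higher one for Tmem143 (33.4 and 179 units), Lsm10 (24.7 and 118), Usp30 (14.1 and 122), Dnajc18 (83.8 and 193) and Gas7 (39.0 and 62.9). Without it the difference went from -2.97 to -1.76 for Tmem143, from -2.72 to -1.59 for Lsm10 and from -2.65 to -1.10 for Usp30, and without array 1 that of Usp30 was -4.21. Lsm10 belongs to the particle that processes histone messenger RNA, and Usp30 is a deubiquitinase of mitochondria. Gm26910 had the largest difference, -4.46 ± 1.6, and read 5.31, 18.6 and 375 units on the null arrays.

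Other probe sets of the same genes did not always share these differences. A second Zranb1 probe set, 1436228_at, read 47.7 and 31.6 units in wild type and 13.3, 8.84 and 13.3 in heterozygous cells (-1.74 ± 0.27), the opposite sign of the first. A second Plec probe set, 1437554_at, differed by 0.20 ± 0.50 and a second Tert probe set, 1450254_at, by 0.02 ± 0.14, both at levels near background. For Sfxn2 a second probe set, 1440786_x_at, had the same sign, with 52.3 and 31.9 against 122, 197 and 95.6 units (1.69 ± 0.36). Because the rule asked for groups that do not overlap, leaving out an array could not change a sign. All 20 genes kept theirs in each of 18 alternative settings. Of these, 7 passed the threshold in 1 setting each: Plec and Cilk1 with a pseudocount of 32, and Smn1, Tmem143, Tert, Lsm10 and Usp30 without wild-type array 1.

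**Figure D3:**
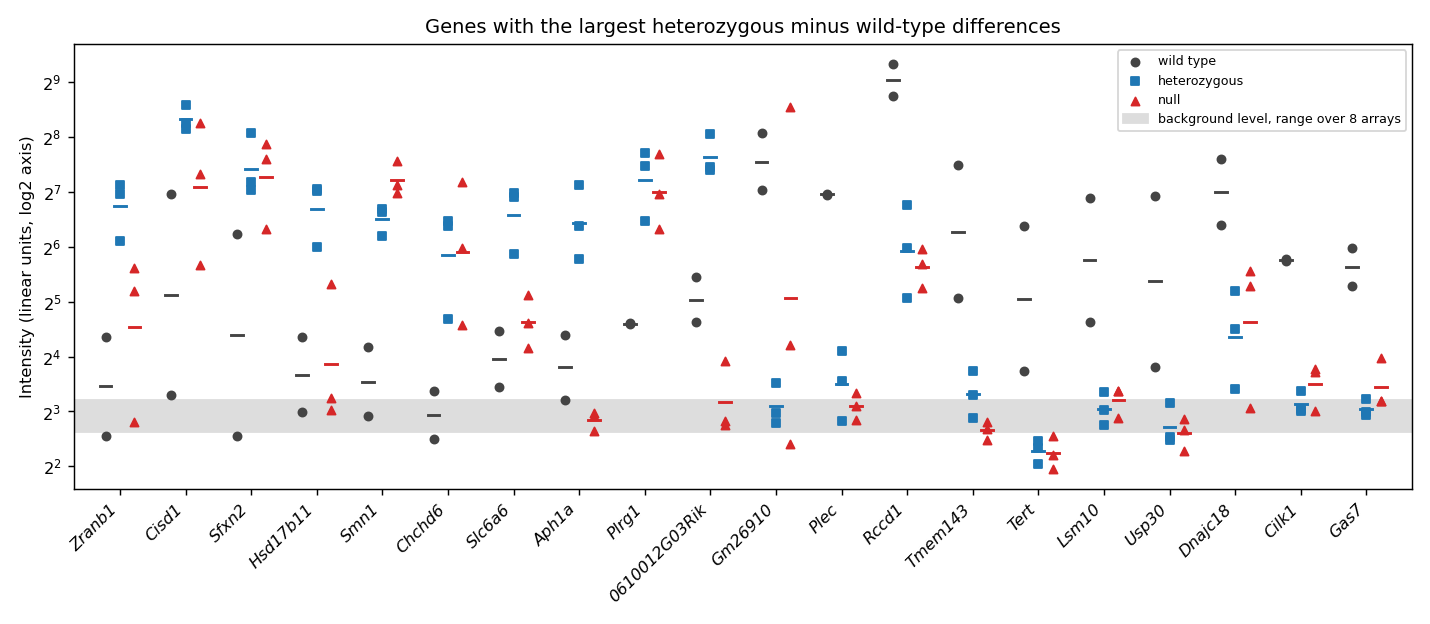
Linear intensity (log2 axis) of the 10 genes with the highest and the 10 with the lowest heterozygous minus wild-type difference, on each array. Points are arrays, bars are means of log2 values, and the grey band is the range of background. For the lower genes Plec to Gas7 most heterozygous points lie in or near the band, and for Cisd1, Sfxn2, Tert and Usp30 the 2 wild-type points lie far apart.

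The baseline of the sorted cells was read from marker genes. Of 25 stem cell transcription factors, 19 were above background on all 5 arrays. Lmo2, a bridging protein of the blood stem cell factor complex, read 1100 and 1080 units in wild type and 1360, 1350 and 1320 in heterozygous cells (0.30 ± 0.18). Runx1, required for blood stem cells to form, read 174 and 217 against 264, 200 and 238 units (0.26 ± 0.21, 95% confidence interval -0.24 to 0.76). Lmo2 was a little higher on every heterozygous array, while the Runx1 groups overlapped. Myb, needed for definitive blood formation, read 553 and 350 against 518, 592 and 650 units. Bmi1, a Polycomb protein that supports self-renewal, read 14.8 and 15.9 against 33.7, 21.4 and 38.1 units (0.98 ± 0.26, unadjusted p = 0.00733, adjusted p = 0.832). Tal1, a master regulator of blood formation, read 114 and 139 against 236, 153 and 260 units (0.75 ± 0.27, unadjusted p = 0.0269), and 0.39 with the sex pattern as a covariate. Bmi1 and Tal1 were the factors at an unadjusted p under 0.05, both higher on all heterozygous arrays, and the list's median difference was 0.19 log2 units. Ikzf1, the lymphoid factor Ikaros, had the largest difference of the list, 1.14 ± 0.70, with wild-type readings of 141 and 37.7 units against 136, 201 and 152. Its groups overlapped, and the difference was 2.09 without wild-type array 1 and 0.19 without array 2.

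Of the surface genes used for the sort, 1 could be read. Kit read 20.2 and 11.7 units in wild type and 23.5, 15.7 and 13.2 in heterozygous cells, above background on all 5 arrays but low (0.14 ± 0.34). A second Kit probe set, 1415900_a_at, read 9.05 and 7.01 against 11.7, 12.5 and 7.79 units (0.39 ± 0.31), below background on wild-type array 2. The gene of Sca-1, Ly6a, was not analysed here. Tek, the angiopoietin receptor, read 85.1 and 103 against 201, 112 and 126 units (0.60 ± 0.46), and Itga4, an adhesion receptor, 235 and 314 against 354, 324 and 349. Both were higher on every heterozygous array. Abcg2, the efflux pump of the side population, read 76.8 and 59.3 against 111, 101 and 123 units (0.72 ± 0.23, unadjusted p = 0.0187, adjusted p = 0.891). Procr, Thy1 and Abcb1a were at background on all 5 arrays. Slamf1, which encodes CD150, read 235 and 22.3 units in wild type and 17.3, 15.9 and 8.86 in heterozygous cells. That difference of -2.43 ± 1.39 rested on wild-type array 1, and it was -0.73 without it and -4.12 without array 2. The other differences of at least 1 log2 unit were Cd93 at 1.41, Cd27 at -1.53 and Angpt1 at -1.08. Cd27 was -2.97 without wild-type array 1 and -0.09 without array 2, and Angpt1 was -0.68 without array 1. Of the 21 measured genes of the list 10 were higher and 11 lower, and the median was -0.03. Among 13 genes of the fetal stem cell program, 0 were at an unadjusted p under 0.05. Hmga2, a chromatin protein of fetal cells, read 92.8 and 165 units against 182, 187 and 164, and Igf2bp3, an RNA-binding protein, 277 and 386 against 205, 203 and 158. The first pair overlapped and the second did not (-0.80 ± 0.70, and -0.03 with the sex pattern as a covariate).

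Markers of other blood lineages were present at differing levels. Summed over the lists, megakaryocyte genes read 12136 to 12799 units in wild type, with 12473 to 13846 in heterozygous cells, and 14 of 15 were above background on all 5 arrays. Pf4, a platelet chemokine, read 3730 and 3790 against 4020, 3610 and 4040 units (0.05 ± 0.18, 95% confidence interval -0.39 to 0.49). Itga2b, the platelet integrin also found on early fetal progenitors, read 411 and 375 against 492, 432 and 464 units. Pf4 and Itga2b thus read far above background on all 5 arrays, in cells sorted without lineage markers. Lymphoid genes summed to 120 and 151 units in wild type, and heterozygous cells to 118 to 143, with a median difference of -0.04. In bulk samples, fewer cells of a type and less RNA per cell cannot be told apart.

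Erythroid and haem synthesis genes held the most members at an unadjusted p under 0.05, with 6 higher and 1 lower of 24, beside 3% and 2.9% of all genes, and 0 passed the threshold. Slc4a1, the anion exchanger band 3 of red cells, read 13.6 and 9.55 units in wild type and 37.9, 48.8 and 59.4 in heterozygous cells, 2.07 ± 0.38 log2 units higher (unadjusted p = 0.00114, adjusted p = 0.546). Gata1, the erythroid and megakaryocyte master factor, read 86.8 and 82.1 against 135, 131 and 158 units (0.74 ± 0.15, unadjusted p = 0.00191, adjusted p = 0.624). Epor, the erythropoietin receptor, read 149 and 180 against 305, 255 and 256 units (0.73 ± 0.18, unadjusted p = 0.00585). In all of these the 3 heterozygous arrays lay above both wild-type arrays. The other higher members were Alad and Fech, enzymes of haem synthesis, and Sptb, the red cell spectrin, at 1.03 to 1.38 log2 units, and the lower member was Urod, another haem enzyme, at -0.80. Alad, at 1.19, was 0.78 without wild-type array 1, and Urod was -1.22 without array 1 and -0.39 without array 2. Klf1, a defining erythroid factor, read 23 and 62.9 against 131, 160 and 171 units (2.01 ± 0.86, unadjusted p = 0.0536). The Klf1 difference was 1.28 without wild-type array 1 and 1.19 with the sex pattern as a covariate. Alas2, the first haem enzyme of red cells, was at background on all heterozygous arrays. The list's median was 0.14, and its summed level was 5756 and 6206 units in wild type against 6033 to 7890 in heterozygous cells, ranges that overlap. Gata1 and Epor were also high on the null arrays, at 181 to 214 and 257 to 333 units. The list as a whole was not, with a null minus wild-type median of -0.37 log2 units. Its summed level on the null arrays was 3341, 5753 and 4843 units.

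Myeloid and macrophage genes varied between single arrays. Mpo, the peroxidase of myeloid progenitors, read 128 and 144 units against 254, 141 and 90.8, with overlap. Csf1r, the receptor of macrophage colony-stimulating factor, read 6.87 and 36.5 against 55.9, 57.1 and 120 units (2.20 ± 0.69, unadjusted p = 0.0163), and its difference was 0.99 without wild-type array 1 and 3.40 without array 2. Fcgr3, an Fc receptor, read 142 and 64.7 against 25.3, 25.1 and 25.7 units (-1.92 ± 0.40, unadjusted p = 0.00218, adjusted p = 0.628). Csf1r was therefore higher and Fcgr3 lower on all heterozygous arrays. Plac8 read 9.04 and 6.87 against 20.3, 31.1 and 26.7 units (1.70 ± 0.43), and 296, 433 and 156 on the null arrays. Elane, neutrophil elastase, was at background in heterozygous cells and read 7.30 and 10.7 units in wild type. C1qb, a complement gene of macrophages, read 58.1 and 434 units in wild type and 106, 50 and 119 in heterozygous cells. Wild-type array 2 had the highest macrophage sum, 1127 units, against 463 on wild-type array 1 and 549 to 720 in heterozygous cells, while the defining marker Adgre1 was at background on all 5 arrays.

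Transcripts of hepatocytes, the main parenchymal cells of the fetal liver, summed to 352 and 720 units on the wild-type arrays and to 1248, 1029 and 715 in heterozygous cells. Afp, the fetal serum protein, read 75.9 and 321 against 617, 623 and 319 units (1.67 ± 0.84), a difference of 0.63 without wild-type array 1 and 2.71 without array 2. Apoa2, a lipoprotein component, read 24.2 and 45.4 against 118, 59.7 and 131 units (1.55 ± 0.42, unadjusted p = 0.00804), and Apoa1 10.2 and 38.7 against 241, 47.9 and 65.3. Apoa1 differed by 2.19, and by 1.23 without wild-type array 1. Albumin went the other way, with Alb at 67.0 and 145 units in wild type and 50.3, 43.8 and 68.4 in heterozygous cells (-0.89 ± 0.48), or -1.45 without wild-type array 1 and -0.33 without array 2. Heterozygous arrays 1 and 2 had the highest hepatocyte sums of the 5, and of the 21 genes in the list 7 were above background on all of them. The part of these cells in the erythroid and other differences was not tested.

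**Figure D4:**
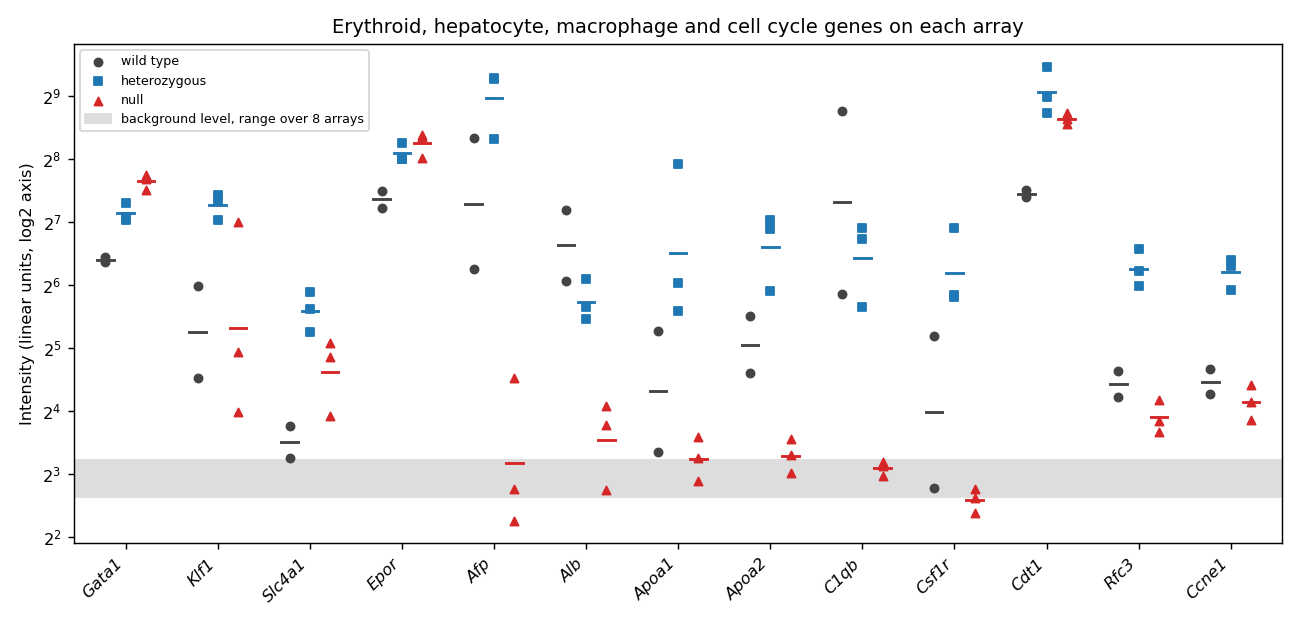
Linear intensity (log2 axis) of erythroid (Gata1, Klf1, Slc4a1, Epor), hepatocyte (Afp, Alb, Apoa1, Apoa2), macrophage (C1qb, Csf1r) and cell cycle (Cdt1, Rfc3, Ccne1) genes on each array. Points are arrays, bars are means of log2 values, and the grey band is the range of background. All heterozygous points of Gata1, Slc4a1, Cdt1, Rfc3 and Ccne1 lie above both wild-type points, and those of Afp, Alb and C1qb overlap with them.

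Cell cycle genes included 3 of the more separated differences. Rfc3, a subunit of the clamp loader of DNA replication, read 24.7 and 18.7 units in wild type and 74.1, 63.4 and 95.3 in heterozygous cells (1.83 ± 0.25 log2 units, unadjusted p = 0.000179, adjusted p = 0.434). Cdt1, which licenses replication origins, read 181 and 168 against 504, 422 and 703 units (1.6 ± 0.22, unadjusted p = 0.000222). Ccne1, the cyclin of S phase entry, read 25.3 and 19.2 against 60.3, 78.4 and 84.2 units (1.74 ± 0.24, unadjusted p = 0.000205). In each the heterozygous arrays were more than 2-fold above the wild-type mean, without overlap, and none passed the threshold. On the null arrays Rfc3 read 12.7 to 18.1 and Ccne1 14.5 to 21.3 units, below or near wild type, and Cdt1 373 to 421. The lists as a whole did not show such a difference, with medians of 0.11 for 31 DNA replication genes, 0.07 for 29 mitosis genes and -0.07 for 22 G1 cyclins, kinases and inhibitors. At an unadjusted p under 0.05, 2 replication, 2 mitosis (Hmmr and Ndc80) and 3 G1 genes (Ccne1, Cdkn2d and Rbl2) were higher and 0 lower, beside 3% and 2.9% of all genes. Without wild-type array 2 the difference went from 1.14 to 0.44 for Hmmr, from 1.03 to 0.33 for Ndc80 and from 1.22 to 0.64 for Rbl2, and without array 1 it was 1.84 for Hmmr and 1.73 for Ndc80. Ccnd3, a D-type cyclin, read 171 and 2290 units on the 2 wild-type arrays and 283, 334 and 295 in heterozygous cells, so its difference turned from -2.92 without array 1 to 0.83 without array 2.

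Basic cell machinery held few of the larger differences. Of 32 cytosolic ribosomal protein genes 0 were at an unadjusted p under 0.05, the median was 0.05 and the range -0.31 to 0.51 log2 units, and for 28 of them the interval lay within 1 log2 unit of 0. Of 33 translation initiation factors and 31 proteasome genes 0 were at an unadjusted p under 0.05 either, with medians of 0.17 and 0.11. Genes of p53 and its targets had a median of 0.14 over 23, with 1 higher, Ei24. The 24 NF-kappaB and inflammatory targets had a median of -0.09 and 0 at an unadjusted p under 0.05. In the unfolded protein and integrated stress response, Atf5, a stress-induced transcription factor, read 7.83 and 9.07 units in wild type and 43.9, 95.8 and 16.7 in heterozygous cells (2.29 ± 0.76, unadjusted p = 0.0204, adjusted p = 0.891). Its null arrays read 439, 245 and 139 units, so the heterozygous values fell between the other groups. Ern1, the endoplasmic reticulum stress sensor, read 198 and 61.2 against 19, 49.2 and 54.2 units (-1.57 ± 0.64), and -0.73 without wild-type array 1 or -2.42 without array 2.

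Transcripts known to carry editing sites and genes near Adar were also listed. Of 22 measured transcripts known to be recoded by A-to-I editing, Cyfip2, a partner of the WAVE actin complex, read 7.13 and 7.55 units in wild type and 34.1, 20.7 and 32.2 in heterozygous cells (1.95 ± 0.24, unadjusted p = 0.000103, adjusted p = 0.356). Its null arrays read 5.94, 7.09 and 7.27 units, all at background, so the heterozygous arrays alone were high. Cog3, a Golgi tether, read 37.5 and 13.5 against 131, 106 and 77.6 units (2.19 ± 0.59, unadjusted p = 0.00768; 1.45 without wild-type array 2). Cdk13 read 8.84 and 9.44 against 12.5, 11.9 and 16.4. The arrays measure transcript level and not editing. Within 1 Mb of Adar on chromosome 3, 68 of 75 listed genes were measured, and the median difference was 0.06. At an unadjusted p under 0.05, 0 of the 68 were higher and 2 lower, beside 3% and 2.9% of all genes. Rab13, a small GTPase of cell junctions, read 122 and 130 units in wild type and 40.6, 12.1 and 28.7 in heterozygous cells (-2.39 ± 0.72, unadjusted p = 0.0138, adjusted p = 0.891), with null arrays at 9.79, 45.9 and 18.7. The other, S100a3, was at background on all 5 arrays.

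**Figure D5:**
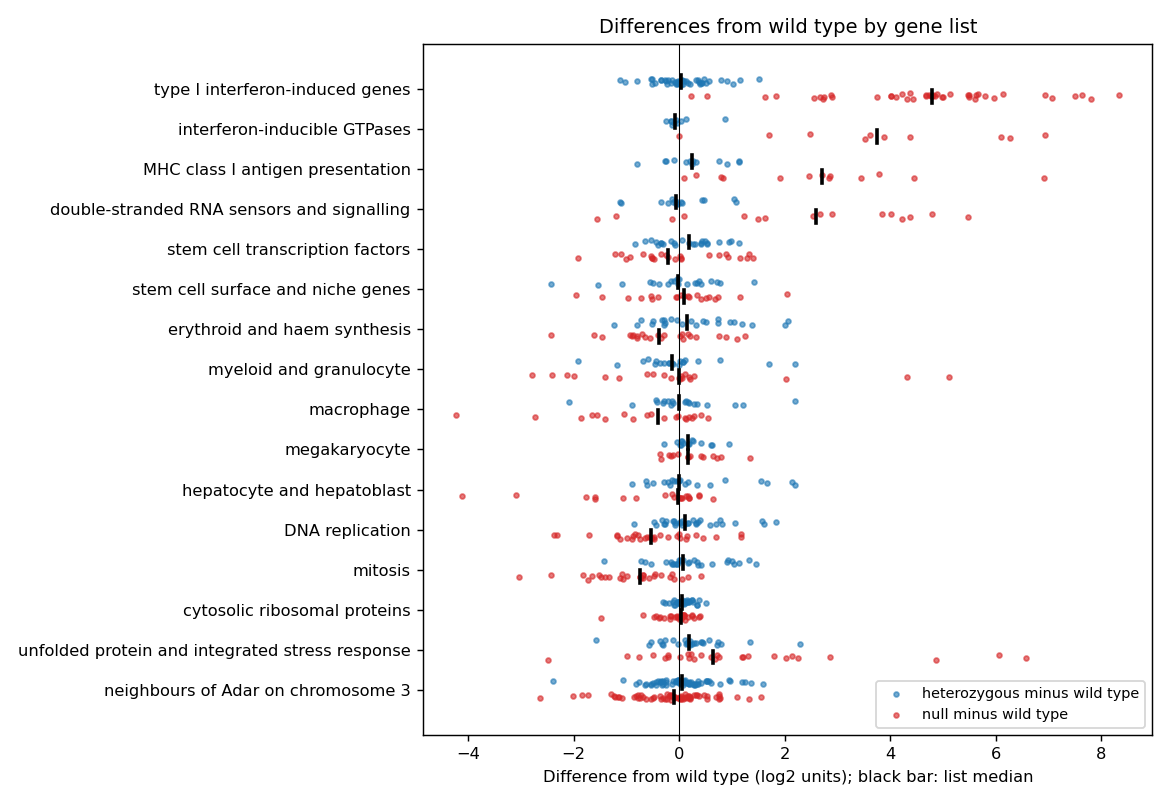
Difference from wild type (log2 units) of every measured member of 16 gene lists, in heterozygous cells (blue) and null cells (red), which share the wild-type arrays. Points are genes and black bars list medians. In heterozygous cells the medians lie between -0.13 and 0.25, and in null cells the interferon list has a median of 4.79.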

How the data were processed

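Messenger RNA was measured on 8 Affymetrix mouse arrays, of which 5 enter this comparison. The authors deposited linear intensity per probe set, and RMA is named in the submitters' processing notes; its version is not given in the sources used here. Labelling used an amplification kit, per the labels' protocols. Log2 of the deposited intensity was taken with a pseudocount of 0. Of 45101 probe sets, 64 controls were left out and 45037 tested; 34945 name 1 gene, 932 several and 9160 none, and 34741 were matched by gene number to RefSeq on GRCm38.p6. A gene was read by the probe set with the highest mean over the 8 arrays.

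A linear model over the 3 groups (limma 3.58.1, R 4.3.3, lmFit and eBayes, 5 residual degrees of freedom) gave each difference with its standard error. P was two-sided and adjusted after Benjamini and Hochberg across the 45037 probe sets, also for genes, with a threshold of 0.05. The null arrays share in the estimate of the spread; array numbers follow the order of deposit and pair nothing. Background per array was the highest Bacillus control, and a group all at or below it gives only a bound.

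Named genes were Adar, sex-linked transcripts, calls, the 10 highest and 10 lowest differences, leading members of each list (up to 4), stem cell surface genes and the 10 interferon-induced genes highest in null cells. Other genes (Pf4, Itga2b, Eif2ak2, Irf3, Ifnb1, Ifnar1, Lmo2, Runx1, Myb, Hmga2, Mpo, Alas2, Ccnd3, Wasf1, Alad, Fech, Sptb, Urod and those picked by an unadjusted p under 0.05) were named for their role or after their values were seen. The members and lists were chosen with earlier results of these data known. Alternatives were other samples in the fit, normalizations, pseudocount, filters, variance models, array weights, the sex pattern, each array left out and the mean of probe sets per gene. The test was checked on simulated arrays, where 11 of 44837 unshifted probe sets were called. The number of arrays limits the precision.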

Additional observations from a re-analysis of the deposited data

How the results depend on the processing

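With 2 wild-type arrays that differ strongly, small differences could not be separated from the spread, and low probe sets near background give compressed values. The count of probe sets past the threshold, 1 with all arrays, was 0 with the 5 wild-type and heterozygous arrays alone (smallest adjusted p = 0.254), 0 with a filter at the median level (0.0817), 0 with an intensity trend (0.052), 0 with the sex pattern as a covariate (0.329) and 5 with a pseudocount of 32 (0.0356). Leaving out 1 array in turn gave 0 to 164 probe sets and 0 to 71 genes; without wild-type array 1 it was 164 and 71, and without wild-type array 2 it was 38 and 11. The number of genes, 0 with all arrays, was 2 with a pseudocount of 32 (Plec and Cilk1). With quantile or cyclic loess normalization, the filter on background and array weights it stayed at 1 probe set and 0 genes, and the mean of probe sets per gene gave 0 genes. In each fit that leaves 1 wild-type array, that array is assumed to vary like the other groups. The interferon-induced genes had 0 past the threshold in all settings run, with medians from -0.16 (cyclic loess) to 0.05 (quantile). The median over all probe sets was -0.07 to 0.06 in these settings. The cause of the changed counts was not tested, beyond fewer features or arrays in some settings. No paired analysis was possible because the labels give no replicate numbers that groups share.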

Other observations

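Among lists not described above, sterol and fatty acid synthesis genes had a median difference of 0.19 log2 units over 24 measured, 2 higher and 1 lower with unadjusted p below 0.05, and 0 past the threshold. At that p, 3% of all genes were higher and 2.9% lower, the background of the other counts given here. The 42 respiratory chain subunits had a median difference of 0.10, 3 being higher and 0 lower, and all 42 were above background on all 5 arrays. The 37 DEAD and DEAH box helicases, which unwind RNA, had a median difference of 0.15, 2 being higher and 3 lower. The 25 lysosomal genes had a median of 0.03, with 2 members in each direction. The 17 glycolysis genes had a median of -0.02 and the 13 mast cell genes -0.01, with 0 in either direction. Of 20 Hox cluster genes, which pattern the body axis and some of which act in stem cells, 11 were at background on all 5 arrays and 2 were above it on all 5, with a median of -0.10. The 26 cell death effectors and regulators had a median of 0.01 and 0 in either direction. The endothelial and stromal list had a median of -0.11 over 22 genes. Its largest separated member was Col4a1, a basement membrane collagen, which read 15.1 and 15.1 units in wild type and 6.92, 4.63 and 5.45 in heterozygous cells (-1.43 ± 0.20, limma, unadjusted p = 0.000219, adjusted p = 0.434). Without either wild-type array the Col4a1 difference stayed at -1.43, and its null arrays read 6.61, 5.96 and 7.38 units.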
